A study of Komagataella phaffii CBS 7435 with 16 samples.

Results

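GTH1 is a gene of the methylotrophic yeast Komagataella phaffii that encodes a high-affinity glucose transporter. It was taken from the deposited tables by its identifier, PP7435_Chr1-0007.t01, which makes it 1 of 5564 features listed and 1 of 5452 left after features with low counts were removed. The gene had been picked with its levels in these libraries known, so its own values are given as a description and without a test. The coding length in the tables is 1626 nt and the identifier places it on chromosome 1.

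Transporters of this kind sit in the plasma membrane and carry glucose into the cell. Yeasts use high-affinity forms when external glucose is scarce and low-affinity forms when it is plentiful. In K. phaffii the GTH1 promoter is known for being strong when glucose is limiting and repressed when glucose is in excess, and it has been used to drive recombinant genes in glucose-limited cultures.

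RNA was sequenced from glucose-limited chemostats of the wild-type strain CBS7435 at 25 °C, pH 5.5 and a dilution rate of 0.075 per h, with 4 biological replicates at each of 4 sampling points. By the sample labels, the first point is 30% oxygen with 5 reactor volume changes completed. The labels put the other points at 0% oxygen, with 0.4, 4 or 5 volume changes completed. The treatment protocol describes the first point as normoxic (21% oxygen in the inlet air, 66 h) and the others as hypoxic (8% in the inlet air), reached 5, 50 and 70 h into that phase, so the labelled percentages are not those of the inlet gas in the protocol. All 16 libraries carry the wild-type genotype, and the first point differs from the others in both oxygen and total time in the reactor, which cannot be told apart. Library totals ran from 23085262 to 40699763 estimated counts. The lowest total was that of replicate 2 at 5 volume changes of 0% oxygen. The protocol gives all of these cultures as glucose-limited, and no group with excess glucose was analysed here.

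The first question is how much GTH1 RNA the cells held at each sampling point. Levels are given as deposited TPM, an abundance per length that sums to the same value in each library. At 30% oxygen the 4 libraries held 2154, 1990, 1786 and 2188 TPM. At 0.4 volume changes of 0% oxygen they held 45.2, 38.7, 34.6 and 33.3 TPM. At 4 volume changes they held 46.9, 43.6, 39.2 and 28.5 TPM. At 5 volume changes they held 40.8, 32.3, 27.0 and 35.0 TPM.

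Every library at 0% oxygen lay far below every library at 30% oxygen, and the 3 groups at 0% oxygen overlapped each other. In CPM, defined below, 48.3% of all tested features had groups that did not overlap between 0.4 volume changes of 0% oxygen and 30% oxygen, 42.6% at 4 volume changes and 40.9% at 5. Because the gene was chosen from these levels, nothing is read from its place among them. In bulk RNA, fewer cells with GTH1 RNA and less of it per cell cannot be told apart.

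**Figure D1:**
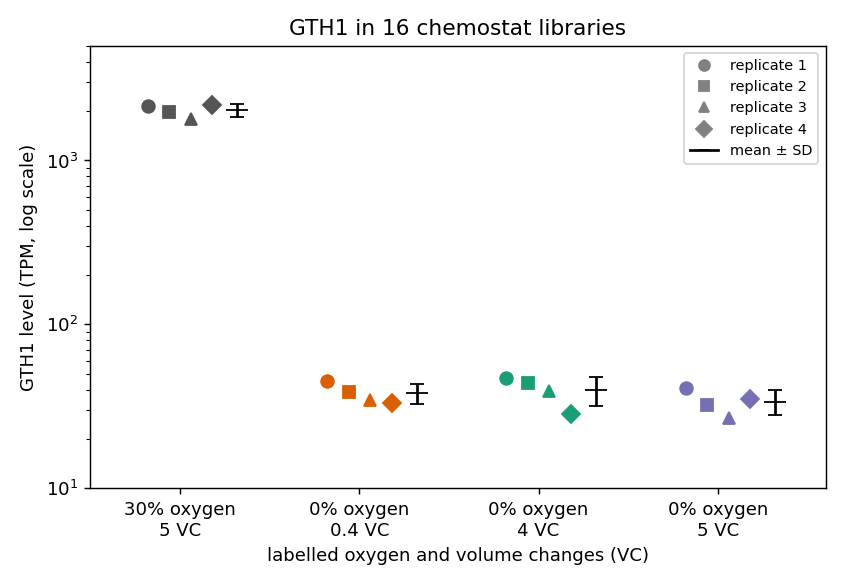
GTH1 level in TPM (log axis) in each of the 16 libraries by labelled oxygen and volume changes (VC), where symbols mark the replicate number and bars the mean ± SD of 4 libraries. The libraries at 30% oxygen sit between 1786 and 2188 TPM and those at 0% oxygen between 27.0 and 46.9 TPM.

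The group means were 2029 ± 184 TPM at 30% oxygen and 37.9 ± 5.34 TPM at 0.4 volume changes of 0% oxygen, 39.6 ± 8.04 TPM at 4 and 33.8 ± 5.76 TPM at 5 (SD, n = 4 each). From high to low, the order on this scale was therefore 30% oxygen, then 4, 0.4 and 5 volume changes of 0% oxygen. Only the step below 30% oxygen was larger than the spread between replicates. Neighbouring means among the last 3 differed by less than 1 SD of either group.

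Among the 5378 coding features of each library, ranked by TPM from the highest, GTH1 stood between ranks 46 and 73 at 30% oxygen. It stood between ranks 2723 and 3285 at 0.4 volume changes of 0% oxygen, between 2534 and 3978 at 4, and between 3046 and 4094 at 5. The transcript was thus among the more abundant ones in every library at 30% oxygen and in the middle or lower part of the list in every library at 0% oxygen.

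The share of all counts taken by GTH1 was 0.466 ± 0.0433% at 30% oxygen. It was 0.00880 ± 0.000937% at 0.4 volume changes of 0% oxygen, 0.00885 ± 0.00175% at 4 and 0.00796 ± 0.00149% at 5 (SD, n = 4 each). In each comparison with 30% oxygen this loss of share was the third largest of the 5564 features. It made up 2.29%, 2.32% and 2.53% of the summed losses of all features that lost share.

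The number of reads behind these levels was large at all points. Estimated counts for GTH1 ran from 146953 to 202940 at 30% oxygen, from 2748 to 3946 at 0.4 volume changes of 0% oxygen, from 1975 to 3303 at 4 and from 1724 to 3884 at 5. The count was whole within 1e-06 in 16 of 16 libraries, whereas 1.87% to 2.82% of features per library held counts that were not. Counts that are not whole arise where reads are divided between features. Most features held whole counts, as GTH1 did, and whether its reads also match other features was not examined.

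The second question is how GTH1 changed between each pair of sampling points, which the series design asks for all conditions. For this, counts were expressed as CPM, the count scaled to a fixed library total, with TMM factors, which correct for differences in library composition, and log2 fold changes came from edgeR's fit to all 16 libraries. GTH1 averaged 92.3 ± 9.82 CPM at 0.4 volume changes of 0% oxygen and 4465 ± 334 CPM at 30% oxygen (SD, n = 4). That is 2.07% of the level at 30% oxygen and a log2 fold change of -5.60 ± 0.20 (SE). At 4 volume changes it averaged 89.5 ± 22.8 CPM, which is 2.005% of the level at 30% oxygen and a log2 fold change of -5.64 ± 0.20. At 5 volume changes it averaged 78.9 ± 14.57 CPM, which is 1.77% and a log2 fold change of -5.82 ± 0.20. The comparison at 5 volume changes is the one matched in labelled volume changes, and these 3 comparisons share the libraries at 30% oxygen.

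Counted from the most negative log2 fold change of 5452 tested features, GTH1 held place 7 at 0.4 volume changes, place 9 at 4 and place 7 at 5. The features next to it in that order stood at -5.69 and -5.53 at 0.4 volume changes, at -5.74 and -5.28 at 4, and at -6.29 and -5.66 at 5. The medians of all tested features were 0.00793, -0.00239 and 0.0158, and 1% of features lay below -3.00, -2.86 and -2.90. The position of GTH1 in the far lower tail follows from how the gene was picked.

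**Figure D2:**
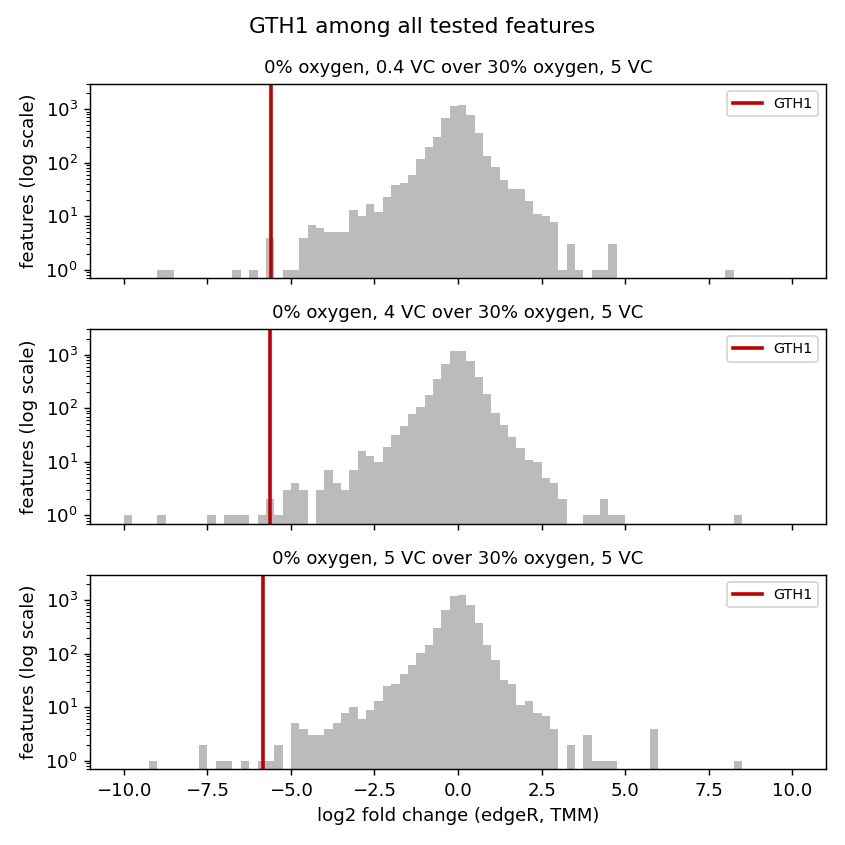
Number of tested features (log axis) by log2 fold change over 30% oxygen at 0.4, 4 and 5 volume changes (VC) of 0% oxygen, 5452 features in each panel, with the red line marking GTH1. GTH1 lies at -5.60, -5.64 and -5.82, near the lower end of each distribution.

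Between sampling points at 0% oxygen the differences of GTH1 were small. The log2 fold change was -0.04 ± 0.16 (SE) for 4 against 0.4 volume changes, and -0.23 ± 0.17 for 5 against 0.4 volume changes. It was -0.18 ± 0.17 for 5 against 4 volume changes. At 0.4 volume changes, 5 h after the switch by the protocol, GTH1 was thus already within the range it held at the later points.

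The order among these groups depended on the scale. The mean at 4 volume changes was below that at 0.4 on TMM-scaled CPM and above it on TPM. By CPM the highest library at 4 volume changes was replicate 2 with 116 CPM, and by TPM it was replicate 1 with 46.9 TPM. Replicate 2 of that group had the lowest TMM factor of the 16 libraries, 0.866.

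**Figure D3:**
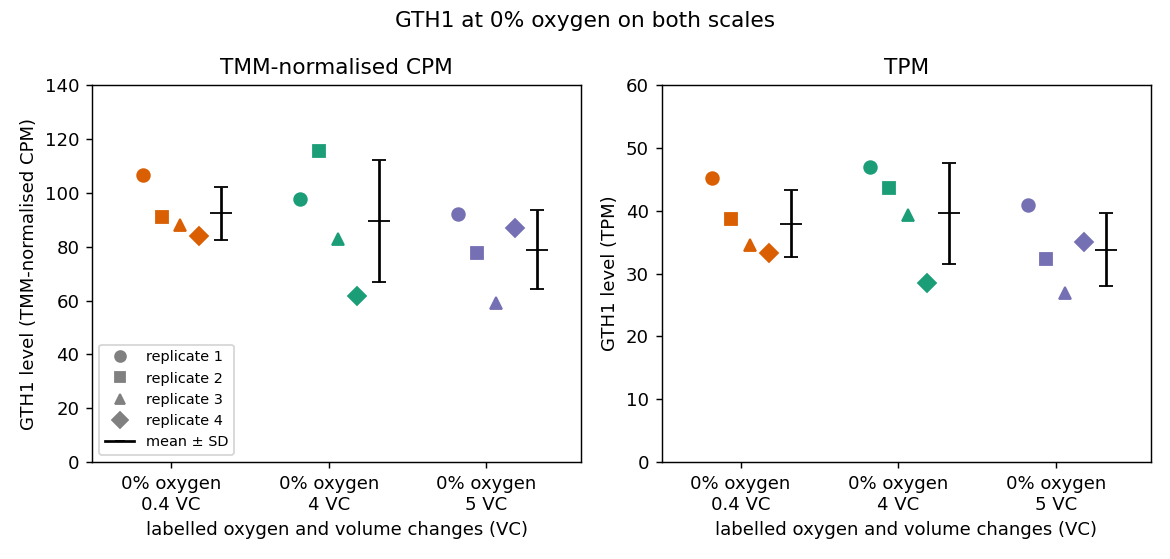
GTH1 level at 0.4, 4 and 5 volume changes (VC) of 0% oxygen in TMM-normalised CPM (left) and TPM (right), 1 symbol per library, with bars for the mean ± SD of 4 libraries. The groups overlap on both scales, and the CPM values span 59.0 to 116.

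Variation between replicates was not the same at all points. The coefficient of variation of GTH1 in CPM was 7.49% at 30% oxygen and 10.6%, 25.5% and 18.5% at 0.4, 4 and 5 volume changes of 0% oxygen. Counting error alone would give at most 2.41% in any library. On the log2(CPM + 1) scale the SD at 30% oxygen was 0.11, against a median of 0.25 for 40 features whose mean level in that group was within 2-fold of GTH1. At 0% oxygen the SD was 0.15, 0.38 and 0.28, against medians of 0.10, 0.16 and 0.15 for 2305, 2379 and 2475 features of like level. Of those features 22.5%, 4.75% and 9.9% had a larger SD than GTH1. Features of like level at 30% oxygen are few and abundant, and those at 0% oxygen are a different and larger set.

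In TPM, replicate 1 was the highest library in each of the 3 groups at 0% oxygen. The lowest was replicate 4 at 0.4 and 4 volume changes and replicate 3 at 5. At 30% oxygen replicate 4 was the highest and replicate 3 the lowest. The labels do not say whether a replicate number marks the same reactor at all points.

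To see which other features ran with GTH1, its log2(CPM + 1) values over the 16 libraries were correlated with those of 5344 coding features that averaged 50 counts or more. The libraries fall into 2 sets far apart, 4 at 30% and 12 at 0% oxygen, so such a correlation mostly measures that single step, and it is given as a description. The feature with the highest r was PP7435_Chr4-0972.t01 (1506 nt), with r = 0.997. It held 930 ± 93.6 CPM at 30% oxygen, and 30.8 ± 3.72 CPM at 0.4 volume changes of 0% oxygen, 28.2 ± 4.83 CPM at 4 and 24.4 ± 5.04 CPM at 5 (SD, n = 4 each). Over the 12 libraries at 0% oxygen alone, r was 0.759.

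The next was PP7435_Chr3-0349.t01 (2667 nt), with r = 0.997 as well. It held 1733 ± 118 CPM at 30% oxygen, and 16.4 ± 1.80, 15.7 ± 2.05 and 12.5 ± 1.76 CPM at 0.4, 4 and 5 volume changes of 0% oxygen. Over the 12 libraries at 0% oxygen r was 0.596. Both features shared with GTH1 a large difference that was present at 0.4 volume changes, which follows from how they were picked. They also shared a lowest mean at 5 volume changes, and the pick used those libraries too. GTH1 differed there from 4 volume changes by a log2 fold change of -0.18 ± 0.17 (SE).

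The features most opposed to GTH1 were PP7435_Chr3-0810.t01 (2019 nt), with r = -0.993, and PP7435_Chr2-1117.t01 (726 nt), with r = -0.987. PP7435_Chr3-0810.t01 was low at 30% oxygen, at 2.10 ± 0.875 CPM, from 42 to 148 estimated counts per library. It held 616 ± 30.2, 710 ± 100 and 704 ± 109 CPM at 0.4, 4 and 5 volume changes of 0% oxygen. PP7435_Chr2-1117.t01 held 99.6 ± 15.95 CPM at 30% oxygen, 470 ± 16.4 CPM at 0.4 volume changes of 0% oxygen, 454 ± 107 CPM at 4 and 449.8 ± 61.7 CPM at 5 (SD, n = 4 each). Over the 12 libraries at 0% oxygen r was -0.807 for PP7435_Chr2-1117.t01 and -0.166 for PP7435_Chr3-0810.t01. Both were picked on all 16 libraries, which include these 12, so the values describe the pick and are no separate evidence of a relation.

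**Figure D4:**
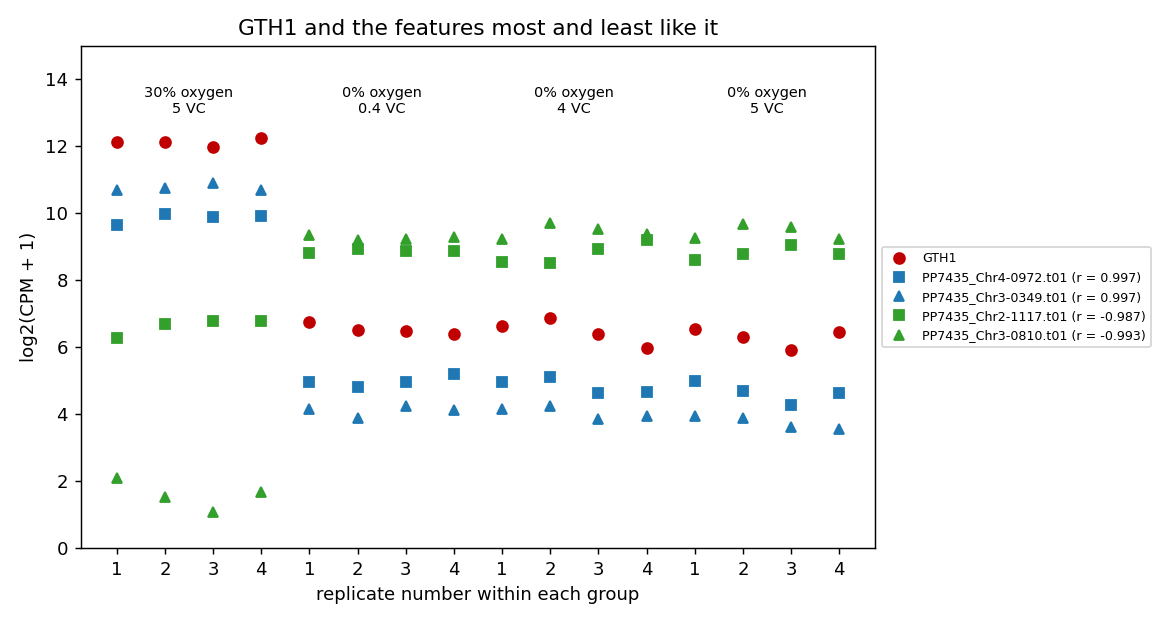
log2(CPM + 1) of GTH1 and of the 4 features with the highest and lowest correlation with it, for each replicate of the 4 groups (VC, volume changes). GTH1 and 2 features are high at 30% oxygen and low in all 12 libraries at 0% oxygen, and the other 2 are the reverse.

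In all, 285 of the 5344 features had r of at least 0.9 with GTH1 and 132 had r of at most -0.9. With Spearman's rank correlation, which gives less weight to the step, these counts were 7 and 3. The features named above were not among them. Their rank correlations were 0.868 for PP7435_Chr4-0972.t01, 0.821 for PP7435_Chr3-0349.t01, -0.871 for PP7435_Chr2-1117.t01 and -0.676 for PP7435_Chr3-0810.t01. When each group's mean was subtracted, so that differences between groups were removed, r with GTH1 ran from -0.913 to 0.919 over the features and reached 0.9 in 2 of them. The tables pair none of these identifiers with a gene name, so nothing is said of what they encode.

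The features numbered beside GTH1 on chromosome 1 were examined next. Their values had no part in choosing the gene, but the list was set with earlier results of these data known. The list held the 15 coding features numbered 1 to 17 other than GTH1, which is number 7. The list goes by identifier number alone, and positions on the chromosome were not analysed here. The tables' rows from number 1 to number 17 also hold 5 coding features with much higher numbers, which are not on the list. The row between GTH1 and number 8 holds 1 of these, number 1598 (189 nt). It was picked out after the values were seen and is given without a test. It averaged 7.46 ± 0.761, 22.6 ± 5.29 and 19.6 ± 6.02 CPM at 0.4, 4 and 5 volume changes of 0% oxygen and 6.88 ± 0.999 CPM at 30% oxygen (SD, n = 4 each). Its means at 4 and 5 volume changes were thus the higher ones, whereas GTH1 was low at all 3 points. Per length, GTH1 was the most abundant of these 16 features at 30% oxygen, at 2029 TPM against 0.102 to 663 TPM for the others. At each point of 0% oxygen it held place 5 of the 16.

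At 0.4 volume changes of 0% oxygen against 30% oxygen, 8 of the 15 were called in edgeR's quasi-likelihood test at a Benjamini-Hochberg adjusted p under 0.05, where 47.8% of all tested features were called. Of the 8, 1 was called higher and 7 lower. Over all tested features 1296 were called higher and 1310 lower, the latter 24%. At 4 volume changes 7 were called, 3 higher and 4 lower, where 50% of all tested features were called. At 5 volume changes 9 were called, 2 higher and 7 lower, where 45.9% of all tested features were called. Over all tested features 1273 were called higher and 1227 lower, the latter 22.5%. Without replicate 3 at 30% oxygen the 9 became 5, with 1 higher and 4 lower. Calls over all features then went from 2500 to 2280. The median log2 fold changes of the 15 were -0.41, -0.10 and -0.23, beside 0.00793, -0.00239 and 0.0158 over all tested features. As shares of the 15, the calls came to 53.3%, 46.7% and 60%, and their difference from the shares over all features was not tested.

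The split of these calls moved with the scaling, and not always the same way. On log2(TPM + 1) with limma, 743 calls over all features were higher and 1627 lower at 0.4 volume changes, in place of 1296 and 1310. At 5 volume changes they were 838 and 1289, in place of 1273 and 1227. With upper-quartile factors in edgeR the split at 5 volume changes turned to the other side, with 1566 higher and 1046 lower over all features and 3 higher and 5 lower among the 15. At 4 volume changes these factors gave 1531 higher and 1201 lower, in place of 1342 and 1385, and left the 15 at 3 higher and 4 lower.

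Number 8, the next higher number on the list (597 nt), fell as well and then rose in part. It held 31.98, 32.5, 31.5 and 35.5 CPM at 0.4 volume changes of 0% oxygen, 63.7, 87.0, 59.9 and 51.9 CPM at 4, and 78.2, 71.6, 58.8 and 76.4 CPM at 5, against 161, 255, 248 and 233 CPM at 30% oxygen. All its libraries at 0% oxygen lay below all at 30% oxygen. Of all tested features, 48.3%, 42.6% and 40.9% had groups that did not overlap with 30% oxygen at 0.4, 4 and 5 volume changes. The log2 fold changes of number 8 over 30% oxygen were -2.77 ± 0.16, -1.78 ± 0.16 and -1.66 ± 0.15 (SE) at 0.4, 4 and 5 volume changes. Their adjusted p-values in edgeR's quasi-likelihood test were 9.42e-11, 3.23e-08 and 8.34e-08. Between 0.4 and 4 volume changes it rose by 1.00 ± 0.15 on the log2 scale, with an adjusted p of 6.22e-05 in the same test. The values of GTH1 beside these were -5.60, -5.64 and -5.82 over 30% oxygen and -0.04 between 0.4 and 4 volume changes.

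Number 6, the next lower number (1818 nt), differed less from 30% oxygen than number 8 did. It averaged 70.6 ± 2.69 CPM at 0.4 volume changes of 0% oxygen and 94.0 ± 2.297 CPM at 30% oxygen (SD, n = 4), and its log2 fold change was -0.41 ± 0.09 (SE) with an adjusted p of 0.00079 in edgeR's test. At 4 volume changes it averaged 89.6 ± 8.93 CPM, with a log2 fold change of -0.07 ± 0.09 over 30% oxygen and an adjusted p of 0.529. At 5 volume changes it averaged 80.3 ± 8.32 CPM, with a log2 fold change of -0.23 ± 0.09 and an adjusted p of 0.0422. Between 0.4 and 4 volume changes of 0% oxygen it rose by 0.34 ± 0.09 on the log2 scale, with an adjusted p of 0.00535 in edgeR's test.

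Number 14 (1164 nt) had the lowest log2 fold changes of the 15 at 4 and 5 volume changes, and it was singled out after these values were seen, so it is given without a test. It held 122, 145, 134 and 134 CPM at 0.4 volume changes of 0% oxygen, 17.7, 8.83, 11.8 and 13.15 CPM at 4, and 11.6, 11.2, 11.2 and 11.5 CPM at 5, against 281, 300, 317 and 310 CPM at 30% oxygen. Its log2 fold changes over 30% oxygen were -1.17, -4.55 and -4.73 at 0.4, 4 and 5 volume changes.

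**Figure D5:**
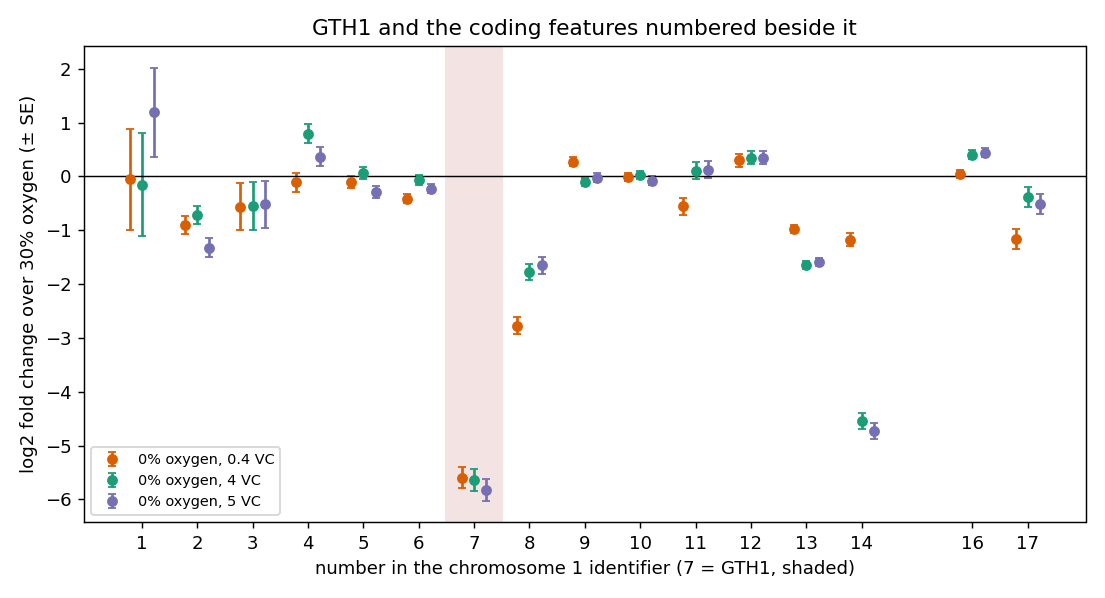
log2 fold change over 30% oxygen (edgeR, ± SE) of GTH1 (number 7, shaded) and of the 15 coding features numbered 1 to 17 on chromosome 1, at 0.4, 4 and 5 volume changes (VC) of 0% oxygen. GTH1 lies at -5.60 to -5.82 at all 3 points, number 8 at -2.77 to -1.66, and number 14 at -1.17, -4.55 and -4.73.

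Between points at 0% oxygen, 9 of the 15 features were called for 4 against 0.4 volume changes, 6 higher and 3 lower, where 34.8% of all tested features were called. For 5 against 0.4 volume changes 7 were called, 4 higher and 3 lower, where 28.7% of all were called. On log2(TPM + 1) with limma, calls over all features were 1205 higher and 596 lower for 4 against 0.4 volume changes, in place of 916 and 984. For 5 against 0.4 volume changes they were 771 higher and 521 lower, or 931 and 679 with upper-quartile factors, in place of 745 and 822. For 5 against 4 volume changes 0 were called by edgeR's quasi-likelihood test, where 0.642% of all were called. At an unadjusted p under 0.05 there were 3 of the 15 in that comparison, where 12.3% of all tested features (668) were under it. DESeq2 called 1 of the 15 and 113 features in all.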

How the data were processed

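The authors deposited 1 table per library, which gives for 5564 features their length, effective length, estimated count and TPM, per the file headers. The estimated counts are not normalised, and the deposited TPM values divide them by effective length and have an equal sum across libraries. The submitters' processing notes name kallisto 0.44.0, DESeq2 1.36.0, Bowtie2 2.3.4.1, cutadapt 1.18, R 4.2.0 and SAMtools 1.9, without roles. Libraries were depleted of ribosomal RNA and directional, per the labels' protocols. The sources used here do not give the build, annotation or strand setting.

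Estimated counts were rounded to whole numbers. In edgeR 4.0.16 (R 4.3.3), filterByExpr removed 112 features, libraries were scaled by TMM, and a quasi-likelihood fit over all 16 libraries gave each group its own mean. Tests were two-sided and adjusted by Benjamini-Hochberg over all 5452 features. GTH1 itself was not tested. Standard errors came from the F statistic. Scripts were tested on simulated data. The gene and the lists were chosen with earlier results of these data known.

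Features were named by rule: GTH1, the 2 highest and 2 lowest correlations with it, and the features with the next lower and next higher number. Numbers 14 and 1598 were outside this rule and were added after their values were seen. Lists for glucose use (20 symbols) and for glycolysis and fermentation (15 symbols) were not tested, since 0 of 5040 reference genes (assembly ASM2700v1) matched an identifier and 0 carried a symbol. The name GTH1 was given with the identifier. Alternatives were DESeq2 1.42.0, limma 3.58.1 on log2 TPM with 1 or 0.1 added, upper-quartile or RLE scaling, leaving out the filter, a mean of at least 50 counts, fits of the 2 groups compared, a replicate block, and leaving out each library. The labels call replicates biological without saying whether they are separate reactors, so p-values measure the spread between these libraries. No 2 replicates matched within sampling noise (lowest chi-square 19.3 per degree of freedom).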

Additional observations from a re-analysis of the deposited data

Results flagged for a closer look

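Of 32 sets of 4 libraries examined for a value far from the other 3 (GTH1 and the other features described above, in 4 groups), 1 was found. Chance flags about 1 set in 20, which is 1.6 of 32, so 1 is no more than chance gives. The feature numbered 6, the number before that of GTH1, stood at 92.7 CPM in 1 library, replicate 1 of the group at 0% oxygen and 5 volume changes, while the rest of that group held 74.8 to 77.7 CPM. The same library was the highest of its group for GTH1, at 92.2 CPM against 59.0 to 86.7 CPM. Whether the 2 are connected was not tested.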

How the results depend on the processing

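The log2 fold change of GTH1 over 30% oxygen kept its sign under all alternatives run. It ranged from -5.74 to -5.58 at 0.4 volume changes of 0% oxygen (leaving out single libraries, -5.67 to -5.55), from -5.70 to -5.59 at 4 (-5.79 to -5.50) and from -5.92 to -5.76 at 5 (-5.91 to -5.71). The value of -5.74, from limma on log2(TPM + 0.1), differed from the main one by more than 1 SD between replicates. For 4 against 0.4 volume changes the sign was not stable: it was 0.0459 with limma on log2(TPM + 1) and 0.0466 on log2(TPM + 0.1), and -0.19 to 0.11 when single libraries were left out, being 0.03 without replicate 1 at 0.4 and 0.11 without replicate 4 at 4 volume changes. The other 2 comparisons within 0% oxygen kept their sign, at -0.31 to -0.11 for 5 against 0.4 and -0.33 to -0.03 for 5 against 4 volume changes without single libraries.

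Among features, the correlation of PP7435_Chr3-0810.t01 with GTH1 was 0.0646 on deviations from the group means. The restriction to 12 libraries and the count over all 20 coding features in the rows from number 1 to 17 were chosen after seeing the data. Over those 20, the calls were 9, 9 and 11 against 30% oxygen at 0.4, 4 and 5 volume changes. Of all tested features 47.8%, 50% and 45.9% were called in these comparisons. Called neighbours at 5 volume changes against 30% oxygen numbered 5 to 10 when single libraries were left out. Calls over all features then ranged from 2178 to 2646. For 5 against 4 volume changes, calls over all features were 35 in the main test, 113 with DESeq2, 5 with limma on log2(TPM + 1), 5 on log2(TPM + 0.1), 0 in a fit of these 2 groups alone, and 16 to 41 without single libraries (20 and 19 without replicates 3 and 4 at 4 volume changes, 19 and 16 without replicates 3 and 4 at 5). DESeq2 called 1 neighbour there in place of 0. The cause was not tested.

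Replicate numbers were not taken as pairing the libraries: same-numbered deviations correlated from -0.499 to 0.565, and in no comparison were all 4 above 0.1. For 5 against 4 volume changes 3 of 4 were (0.392, 0.165 and 0.565, each the best match of its library), and the other was -0.295. With a replicate block the GTH1 log2 fold change at 0.4 volume changes against 30% oxygen was -5.60 with 2554 calls over all features, and no count of calls moved by over 1.5 times.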
